A study of Mus musculus with 18 samples.

Results

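Inhibitory interneurons of the ventral dentate gyrus were followed through 10 genes that mark them, out of 34620 genes listed in the RNA-Seq count files. The genes were Gad1, Gad2, Slc32a1, Lhx6, Sst, Npy, Pvalb, Vip, Cck and Reln, listed by symbol as general and subclass markers. The tissue came from microdissected ventral dentate gyrus of adult Swiss Webster male mice, 8 to 12 weeks old, with 2 libraries for each of 3 groups. The study asked whether a mother lacking part of her 5-HT1A serotonin receptors leaves a lasting mark on gene expression in her sons and grandsons. WT males came from a separate line with WT mothers and grandmothers, bred in parallel. F1 males were wild-type sons of mothers heterozygous for the receptor (H), and F2 males were sons of F1 females crossed with WT males. All males sequenced therefore carried the intact receptor gene, and the groups differed in their maternal line. F1 males came from crosses of H mothers with H fathers, whereas the fathers of F2 were WT, so in F1 the maternal and the paternal genotype cannot be told apart. The males of a group came from several litters, but how many animals were pooled for a library is not stated in the labels or methods, so the p-values measure the spread between these libraries, which may be technical.

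Interneurons make and release the inhibitory transmitter GABA onto the granule cells, the excitatory cells that fill the granule cell layer. Glutamate decarboxylases make GABA, a vesicular transporter loads it into synaptic vesicles, and membrane transporters and a transaminase remove it afterwards. The interneurons fall into subclasses that are told apart by a calcium-binding protein or by the neuropeptides they co-release, and that trace to different parts of the embryonic ganglionic eminences. In the dentate gyrus, somatostatin and neuropeptide Y mark cells of the hilus that contact granule cell dendrites, and parvalbumin marks basket cells that contact their cell bodies.

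Each library held 26358165 to 33727936 reads assigned to genes, and all 10 genes passed the filter on low counts that left 17421 genes. Levels are given as CPM, the gene's reads relative to all reads on those 17421 genes in that library. CPM were scaled between libraries by the trimmed mean of M-values. Differences are log2 fold changes with standard errors, and a gene was called at q under 0.01 in edgeR's exact test, with q the p-value adjusted over all tested genes by the Benjamini-Hochberg method. Of the granule cell markers, only Prox1 and Calb1 were also divided by exon length, with means of 70.2 and 66.1 CPM per kb. Cck and Sst lay above both, Npy was level with them, and the remaining interneuron genes lay below. On the same scale the interneuron genes ran from 277 CPM per kb for Cck and 228 for Sst, through 69.2 for Npy, 44.9 for Gad1, 21.5 for Gad2, 20.2 for Pvalb, 13.2 for Slc32a1 and 9.74 for Vip, to 3.77 for Lhx6 and 2.14 for Reln. The ranges over the 6 libraries overlapped between Cck and Sst, between Npy and Gad1, and between each pair of neighbours from Gad2 down to Vip, and they did not overlap between the other neighbours. In bulk tissue, fewer cells of a type and less RNA per cell cannot be told apart.

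The genes lie apart in the genome, on the mouse build NCBIM37 (mm9). Gad1 spans chr2:70391129-70440071 and Gad2 spans chr2:22477725-22549394, both on the plus strand, and Slc32a1 lies at chr2:158436494-158441484 on the same strand. Sst, at chr16:23889667-23890930 on the minus strand, is a compact gene, as is Npy at chr6:49772709-49779506 on the plus strand. Exons of Slc32a1 overlap Gm14205, annotated on the opposite strand, and whether reads lying wholly in shared bases were counted depends on the strand setting, which is not stated. Of the remaining genes, Reln at chr5:21390272-21850523 on the minus strand also overlaps another annotated gene, Gm10475.

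Promoter sequences are shown for the gene called in both F1 and F2, Slc32a1, and for a pair of neuropeptide genes, Sst and Npy, the second being the gene closest to the first in its pattern over the libraries. Each is the 150 bases before the RefSeq start, 5′ to 3′ on the gene's strand, taken from a RefSeq table of GRCm38.p6 and placed on NCBIM37 by an exact and single match. Capitals mark the cAMP response element TGACGTCA, which was searched on both strands.
Slc32a1, chr2:158436344-158436493, plus strand: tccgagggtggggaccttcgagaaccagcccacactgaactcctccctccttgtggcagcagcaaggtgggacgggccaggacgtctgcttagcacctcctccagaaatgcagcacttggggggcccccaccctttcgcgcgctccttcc
Sst, chr16:23890931-23891080, minus strand: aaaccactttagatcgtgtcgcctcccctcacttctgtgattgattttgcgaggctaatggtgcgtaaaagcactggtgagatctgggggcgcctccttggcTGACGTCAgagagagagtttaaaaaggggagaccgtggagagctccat
Npy, chr6:49772559-49772708, plus strand: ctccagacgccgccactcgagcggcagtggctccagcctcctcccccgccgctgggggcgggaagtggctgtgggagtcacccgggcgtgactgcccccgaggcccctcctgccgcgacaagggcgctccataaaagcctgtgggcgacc
All 10 genes had a RefSeq promoter, and in windows of 250 bases the full element was found in Sst alone, 48 bases before the start. It was present in 508 of 32851 mouse promoters of that length, or 1.55%. The homeodomain core TAATTA, in 4.84% of promoters, was in no promoter of the 10 genes. The letters TATAAA, in 12.4% of promoters, were found on either strand in the windows of Gad1 and Vip.

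In F1 males, the vesicular GABA transporter gene Slc32a1 was the one marker called, and it was higher than in WT. Slc32a1 was counted at 28.8 and 25.6 CPM in the WT libraries, 43.7 and 41.9 in F1, and 39.3 and 43.5 in F2. Both F1 libraries and both F2 libraries lay above both WT libraries. Slc32a1 rose 1.57-fold in F1 (log2 fold change 0.65 ± 0.13 SE, exact test q = 2.39e-05) and 1.52-fold in F2 (0.61 ± 0.13, q = 0.000129). The F1 call held whichever library was left out, with q between 0.000139 and 0.00624, while the F2 call was lost without F2 replicate 2 (q = 0.0257) or WT replicate 2 (q = 0.0141).

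The decarboxylase gene Gad2, whose enzyme supplies GABA for synaptic release, was measured at 93.5 and 108 CPM in WT, 138 and 120 in F1, and 142 and 155 in F2. The WT libraries were the lowest and the F2 libraries the highest, with no overlap between any of the groups. In F2, Gad2 rose 1.47-fold (log2 fold change 0.56 ± 0.13, q = 0.000268), a call lost without F2 replicate 2 (q = 0.0272) or WT replicate 1 (q = 0.0382). In F1 its log2 fold change was 0.36 ± 0.13 with q = 0.0273, past 0.05 but not 0.01.

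Gad1, which encodes the decarboxylase behind most of the cell's GABA and is also found at low levels in granule cells, was counted at 307 and 325 CPM in WT, 359 and 316 in F1, and 375 and 375 in F2. F2 libraries stood above both WT libraries, and the F1 libraries straddled the higher WT value. Neither difference passed the test, with log2 fold changes of 0.10 ± 0.12 in F1 (q = 0.619) and 0.25 ± 0.12 in F2 (q = 0.121). Within each library, the ratio of Slc32a1 to Gad1 was 0.0938 and 0.0788 in WT, 0.122 and 0.132 in F1, and 0.105 and 0.116 in F2. The ratio of Gad2 to Gad1 was 0.305 and 0.331 in WT, 0.386 and 0.381 in F1, and 0.378 and 0.413 in F2. Both ratios, chosen after the values were seen, were above both WT libraries in all 4 other libraries, and an exact permutation test of 2 libraries against 2 cannot give a two-sided p below 0.333.

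**Figure D1:**
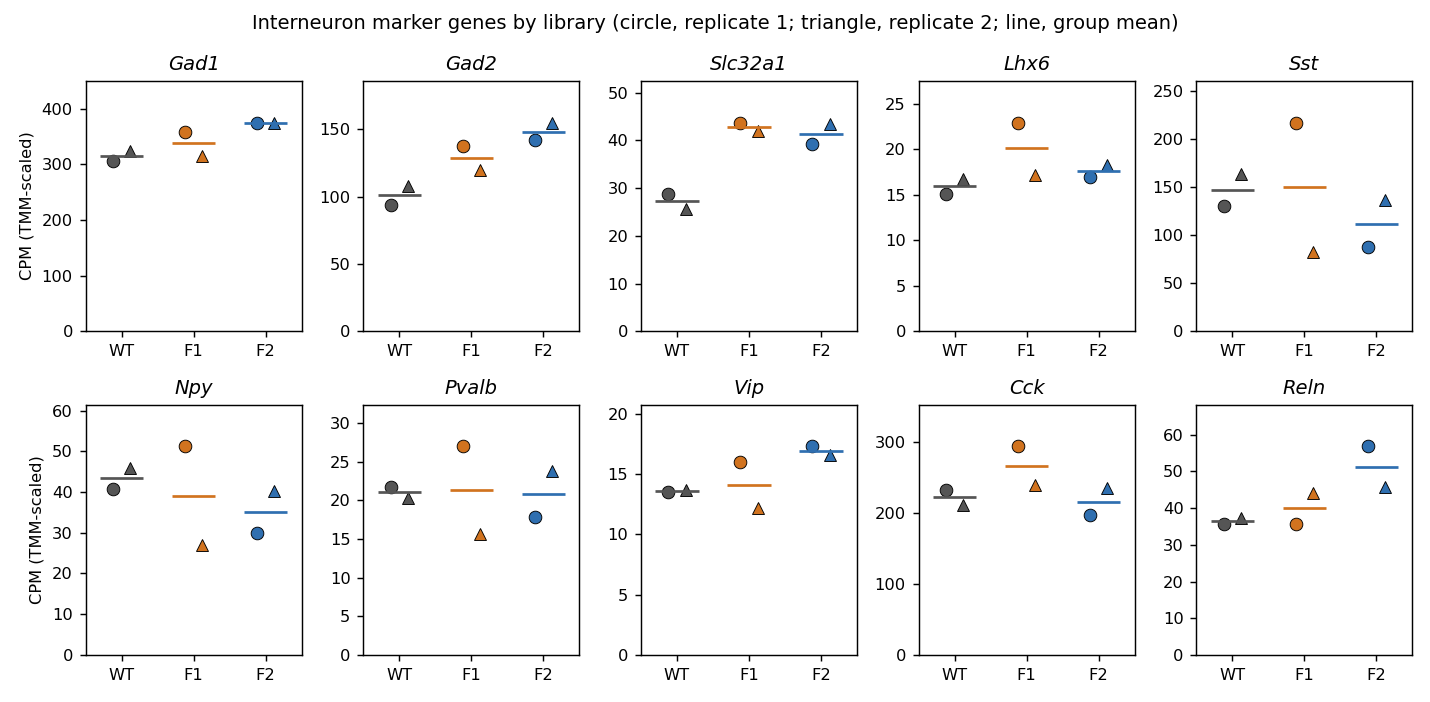
Level of each interneuron marker gene in CPM, on an axis from 0, with 1 point per library and a line at the group mean. Slc32a1 stood at 25.6 to 28.8 CPM in WT and at 39.3 to 43.7 in F1 and F2, whereas the Sst libraries of F1 lay at 217 and 82.2 CPM, on either side of both WT libraries.

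Lhx6, Sst, Npy and Pvalb mark interneurons that come largely from the medial ganglionic eminence, and none of the 4 was called in F1 or F2 by the exact test, the quasi-likelihood test or DESeq2, or had an unadjusted p under 0.05. Lhx6, a transcription factor needed for the parvalbumin and somatostatin cells, was at 15.1 and 16.7 CPM in WT, 22.9 and 17.2 in F1, and 16.9 and 18.3 in F2. All F1 and F2 libraries were above both WT libraries, F1 replicate 1 by the most. The log2 fold changes of 0.34 ± 0.18 in F1 (q = 0.166) and 0.15 ± 0.18 in F2 (q = 0.617) did not pass the test.

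Sst, the somatostatin gene, varied more than any other marker. It was counted at 130 and 164 CPM in WT, 217 and 82.2 in F1, and 87.4 and 137 in F2. The highest and the lowest of all 6 libraries were both F1 libraries, which differed 2.64-fold. Only 0.0695% of the 10074 genes with a mean of at least 10 CPM were as far apart between the F1 replicates. The log2 fold change was 0.03 ± 0.32 in F1 (q = 0.977, 95% interval -0.61 to 0.66) and -0.39 ± 0.32 in F2 (q = 0.436, interval -1.02 to 0.24). One library decided the F1 value, since Sst was at -0.83 (q = 0.00547) without F1 replicate 1 and at 0.57 without F1 replicate 2.

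Npy, the neuropeptide Y gene, followed the same order of libraries at the ends. Its counts were 40.7 and 46.0 CPM in WT, 51.2 and 26.9 in F1, and 29.9 and 40.2 in F2. F1 replicate 1 was again the highest library and F1 replicate 2 the lowest, 1.9-fold apart, and both F2 libraries were below both WT libraries. The log2 fold changes were -0.15 ± 0.24 in F1 (q = 0.712) and -0.31 ± 0.24 in F2 (q = 0.393). Without F1 replicate 1 the F1 value was -0.68 (q = 0.00566).

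Pvalb, the parvalbumin gene, was at 21.8 and 20.3 CPM in WT, 27.0 and 15.6 in F1, and 17.9 and 23.8 in F2. The WT libraries lay inside the range of both other groups. Its group means were nearly equal, with log2 fold changes of 0.02 ± 0.23 in F1 (95% interval -0.43 to 0.46) and -0.01 ± 0.23 in F2 (interval -0.46 to 0.43), intervals that leave room for a moderate difference either way.

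Sst, Npy and Pvalb had the widest range of log2 CPM over the libraries and shared their extremes among the F1 replicates. Of 14658 genes with a mean of at least 1 CPM, the gene closest to Sst in its pattern over the 6 libraries was Npy, with a root mean square difference of 0.18 in centred log2 CPM. Npas4 (0.19), an activity-regulated transcription factor, and Plagl1 (0.20) came next. Closest to Npy were 6030422M02Rik (0.06), Gm9803 (0.09) and Trpv6 (0.09), with Pvalb at rank 33 (0.15) and Sst at rank 130 (0.18), and closest to Pvalb were Tcte1 (0.06), Calca (0.07) and Rprml (0.07). Likeness is a description over 6 points that share their libraries. Several of the nearest genes were counted at only a few CPM.

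Vip, Cck and Reln mark further subclasses. Vip, the gene of vasoactive intestinal peptide in cells that inhibit other interneurons, was at 13.5 and 13.7 CPM in WT, 16.0 and 12.2 in F1, and 17.3 and 16.6 in F2. The F2 libraries were above both WT libraries, but with a log2 fold change of 0.32 ± 0.18 (q = 0.202) the difference did not pass, and in F1 it was 0.05 ± 0.18 (q = 0.889).

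Cck, the cholecystokinin gene of one class of basket cells and also of excitatory hippocampal neurons, was counted at 233 and 211 CPM in WT, 294 and 240 in F1, and 197 and 235 in F2. The F1 libraries were the highest pair, and the F2 libraries overlapped WT. The log2 fold changes were 0.27 ± 0.14 in F1 (q = 0.16) and -0.04 ± 0.14 in F2 (q = 0.886).

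Reln, which encodes the secreted protein reelin and is also made by Cajal-Retzius cells at the hippocampal fissure, was at 35.6 and 37.3 CPM in WT, 35.8 and 44.1 in F1, and 56.8 and 45.7 in F2. F2 was above every WT and F1 library. Reln rose 1.41-fold in F2 (log2 fold change 0.49 ± 0.15, q = 0.00875) and was at 0.13 ± 0.15 in F1 (q = 0.59). The F2 call was close to the threshold and was lost without F2 replicate 1 (q = 0.297), WT replicate 1 (q = 0.112) or WT replicate 2 (q = 0.0435). It was also lost in the quasi-likelihood test (q = 0.03), in DESeq2 (q = 0.0112), with total counts only (q = 0.0158), with no filter (q = 0.0127) and with a filter of CPM above 1 in 2 libraries (q = 0.0103). Of the 6 Cajal-Retzius markers, Lhx1 and Lhx5 were under 1 CPM in every library. Trp73 was at 5.24 and 4.82 CPM in WT, 1.25 and 3.63 in F1, and 2.99 and 2.12 in F2. All 6 had negative log2 fold changes in F1 against WT. In F2 against WT, 3 were higher and 3 lower, with Ndnf at 0.38, Ebf3 at 0.08 and Trp73 at -0.98. The summed level of that list was 215 to 266 CPM in WT, 143 to 207 in F1 and 218 to 220 in F2, most of it Calb2, and its part in the Reln result was not tested.

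**Figure D2:**
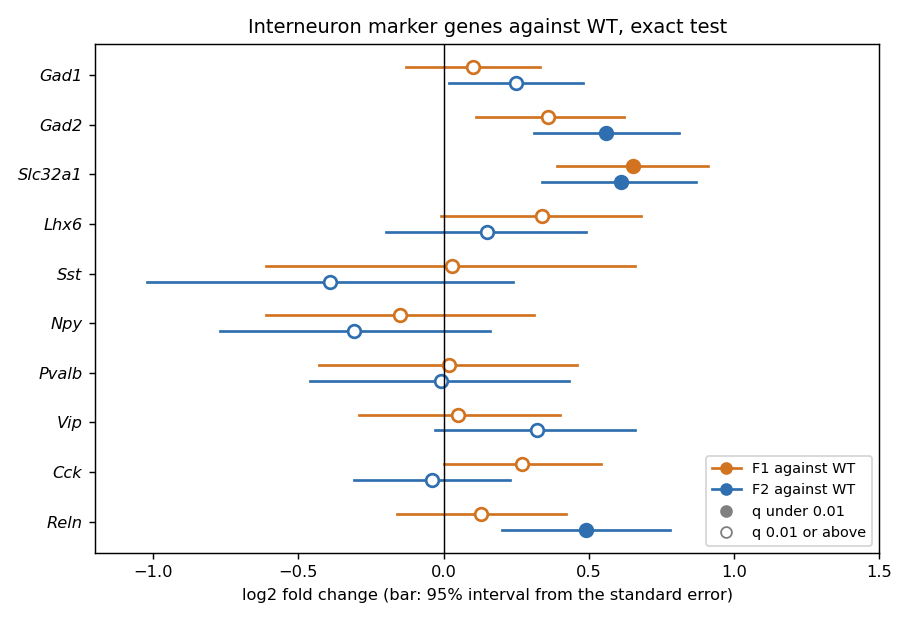
Log2 fold change of each interneuron marker gene in F1 (orange) and F2 (blue) against WT, with bars for the 95% interval from the standard error and filled points for q under 0.01. Slc32a1 is filled in both comparisons and Gad2 and Reln in F2, and the interval of Sst runs from -1.02 to 0.24 in F2.

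Counted together, 1 of the 10 markers was called in F1 against WT, higher, where 3.77% of all tested genes were called higher and 8.54% lower. At q under 0.05 there were 2, Slc32a1 and Gad2, both higher, against 8.08% of genes called higher. In F2 against WT 3 were called, all higher, where 3.86% of all tested genes were called higher and 8.1% lower. At q under 0.01 the quasi-likelihood test called 1 in F1 and 2 in F2, against 5.91% and 5.72% of all genes. Without F1 replicate 1, the F1 log2 fold changes were 0.63 for Slc32a1, -0.83 for Sst and -0.68 for Npy, so they differed in direction. Fewer markers were called in F2 without WT replicate 1, WT replicate 2 or F2 replicate 2. Libraries did not overlap for 4 markers that were higher in F1 and for none that was lower, against 29.8% and 30.6% of tested genes. In F2 they did not overlap for 6 that were higher and 1 that was lower, against 31.0% and 32.0%. The median log2 fold change of the 10 was 0.11 in F1 and 0.20 in F2, beside 0.009 for all tested genes in F1 and a value of zero to the second decimal in F2. F1 and F2 were set against the same WT libraries, so the comparisons are not independent of each other.

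Between F2 and F1 directly, the exact test called none of the 10 markers, where 0.74% of all tested genes were called. The quasi-likelihood test also called none, against 0.0115% of genes, and 2 markers had an unadjusted p under 0.05 in the exact test. These were Cck, with a log2 fold change of -0.31 ± 0.14 (q = 0.441), and Reln, with 0.36 ± 0.15 (q = 0.35). For the called markers the 95% intervals of F2 minus F1 were -0.30 to 0.21 for Slc32a1, -0.05 to 0.45 for Gad2 and 0.07 to 0.65 for Reln, before adjustment for the number of genes. For Sst the direct comparison gave -0.41 ± 0.32 (q = 0.868), and it was called at -0.95 (q = 0.00201) only without F1 replicate 2.

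The subclass markers were also set against the GABA genes of the same library. Slc32a1 and Gad2, called above, are part of the denominator, so a marker that stays level between groups has a lower ratio in F1 and F2. The ratio of Npy to the geometric mean of Gad1, Gad2 and Slc32a1 was 0.434 and 0.477 in WT, 0.395 and 0.230 in F1, and 0.234 and 0.295 in F2. The ratio of Sst to the same mean was 1.38 and 1.70 in WT, 1.68 and 0.703 in F1, and 0.683 and 1.01 in F2. For Pvalb it was 0.232 and 0.211 in WT, 0.208 and 0.134 in F1, and 0.140 and 0.175 in F2. All 4 F1 and F2 libraries were below both WT libraries for Npy and Pvalb, and the F2 libraries were below them for Sst. Vip was also below both WT libraries in all 4, at 0.142 to 0.144 in WT and 0.104 to 0.135 in the others, and Lhx6 and Cck were below WT in both F2 libraries. Reln, at 0.380 and 0.387 in WT, had F2 libraries at 0.444 and 0.335 on either side. A ratio within a library does not depend on scaling between libraries, and none of these ratios was tested.

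**Figure D3:**
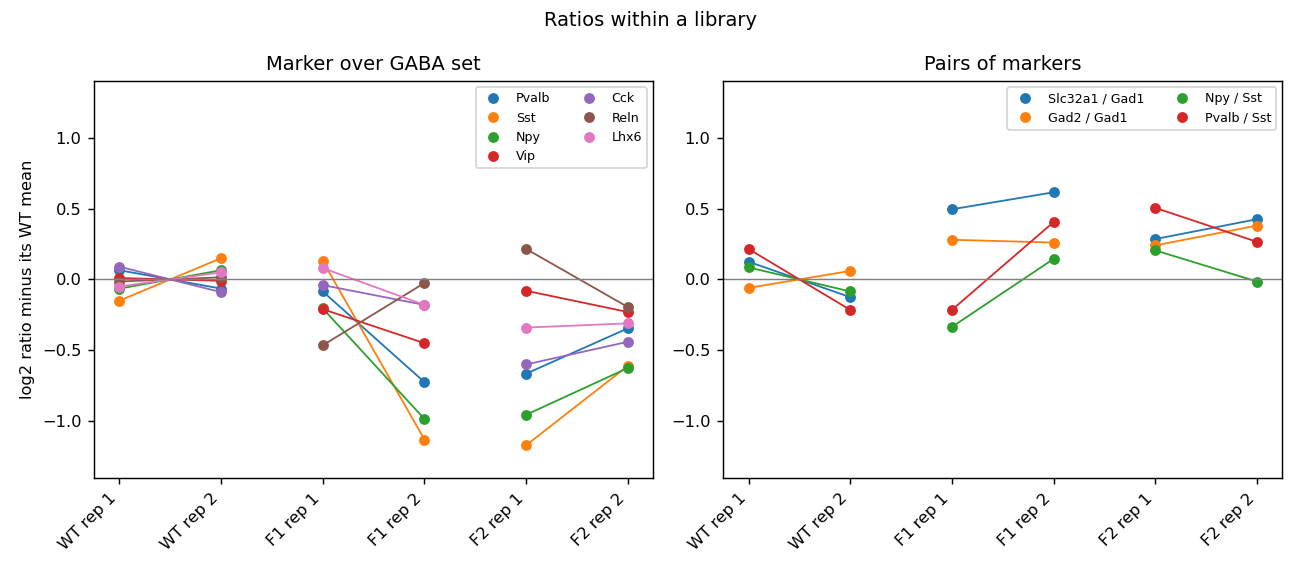
Log2 ratio within a library minus the mean of the WT libraries, for the subclass markers and Lhx6 over the geometric mean of Gad1, Gad2 and Slc32a1 (left) and for pairs of markers (right), with 1 point per library and lines joining the replicates of a group. Npy lies below both WT libraries in every F1 and F2 library, and Slc32a1 over Gad1 lies above them in every one.

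Genes of the wider GABAergic lists were also measured, 43 in all with 42 tested. Of these, 4 were called higher and none lower in F1, and 7 higher and none lower in F2, with medians of 0.07 and 0.13, where 3.77% and 3.86% of all tested genes were called higher. In the quasi-likelihood test the counts were 1 and 5, against 5.91% and 5.72% of all genes in either direction. The number called by the exact test fell in F1 and F2 without WT replicate 1, and in F2 without F2 replicate 2. It rose in F1 without F1 replicate 1, and the share of all tested genes called in these fits is not given.

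Of the 5 genes of GABA uptake and breakdown, the exact test called 3 higher in F1 and 3 higher in F2. Among all tested genes 3.77% and 3.86% were called higher. The quasi-likelihood test called 1 in F1 and 3 in F2, against 5.91% and 5.72% of all genes in either direction. By log2 fold change, 4 were higher and 1 lower in F1, and all 5 were higher in F2. Slc6a11, a GABA transporter gene found mainly in astrocytes, was counted at 67.2 and 71.8 CPM in WT, 97.0 and 115 in F1, and 115 and 126 in F2, and rose by a log2 fold change of 0.61 in F1 (q = 5.2e-05) and 0.79 in F2 (q = 3.93e-08). Abat, the GABA transaminase gene of neurons and glia, rose by 0.50 (exact test q = 0.00193) and 0.69 (q = 7.83e-06). Its F1 call was lost in the quasi-likelihood test (q = 0.0149). Aldh5a1, of the next step of GABA breakdown, was at 0.05 in F1 and 0.20 in F2, with q = 0.829 and 0.253.

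None of the 13 interneuron transcription factors was called in F1 by the exact test or the quasi-likelihood test, with 3 at an unadjusted p under 0.05. In F2 the exact test called 1 higher, beside 3.86% of all tested genes, and the quasi-likelihood test called 0. The gene called was Sox6, needed for the maturation of medial interneurons and also active in glial precursors. Sox6 was at 5.09 and 5.95 CPM in WT and 11.5 and 8.61 in F2 (0.87 ± 0.24, exact test q = 0.00367, quasi-likelihood q = 0.0202). The best counted of the list, Satb1 and Nr2f2, were at -0.07 and -0.11 in F1 and at 0.17 and -0.21 in F2, and neither passed.

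Of the 11 tested medial ganglionic eminence genes, 1 was called in F1 and 3 in F2, all higher, against the same 3.77% and 3.86%, and the quasi-likelihood test called 0 and 2. Nxph1, which encodes a secreted ligand of neurexins, rose by 0.52 ± 0.15 in F1 (q = 0.00441) and 0.58 ± 0.15 in F2 (q = 0.00123). Erbb4, the neuregulin receptor gene, rose by 0.61 ± 0.13 in F2 (q = 9.8e-05) and was at 0.39 ± 0.13 in F1 (q = 0.0204). Syt2, a synaptic calcium sensor gene of parvalbumin terminals, was at 13.9 and 12.1 CPM in WT, 10.6 and 9.07 in F1, and 16.8 and 26.9 in F2. Its rise in F2 was 0.75 ± 0.22 (q = 0.00612), and it was at -0.40 ± 0.22 in F1 (q = 0.192). The best counted, Kcnc1 and Nos1, had log2 fold changes between 0.11 and 0.21 in both groups and did not pass. None of the 13 caudal ganglionic eminence genes was called in either group by the exact test or the quasi-likelihood test, with unadjusted p under 0.05 for 1 in F1 and 2 in F2, and Cnr1 and Calb2, the best counted, were at 0.24 and -0.47 in F1 and at 0.14 and -0.15 in F2.

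Markers of other cells moved between the same libraries. The summed level of the 6 astrocyte markers was 1960 to 2230 CPM in WT, 2410 to 3030 in F1 and 2780 to 3380 in F2, and all 6 had higher group means in F1 and in F2, with 1 and 4 of them called. The 5 microglia markers summed to 104 to 105, 123 to 144 and 139 to 161 CPM, with 0 called in F1 and 4 in F2. The 6 oligodendrocyte markers summed to 1020 to 1870 in WT, 2080 to 2780 in F1 and 1400 to 2690 in F2, with Cldn11 called in both groups and Mag in F1. None of the 10 granule cell markers was called by the exact test or the quasi-likelihood test. In the exact test, unadjusted p was under 0.05 for 2 in F1 and 8 in F2. For that cut, here and for the other lists, the share of all tested genes is not given. All 10 had positive log2 fold changes in F2, with a median of 0.45, and 5 were positive and 5 negative in F1. The granule cell markers summed to 1520 to 1570 CPM in WT, 1320 to 1690 in F1 and 1820 to 2100 in F2. The CA3 and CA1 pyramidal markers summed to 236 to 240, 270 to 334 and 206 to 239 CPM, highest in F1 replicate 1. The mossy cell markers summed to 224 to 275 in WT, 150 to 218 in F1 and 223 in both F2 libraries. Most of that sum was Calb2. Of the mossy cell markers, Nmb fell in both groups, by 0.81 and by 1.10 on the log2 scale. The list was mixed in direction, with 3 of the 6 higher and 3 lower in F1, and 2 higher and 4 lower in F2. The 5 endothelial markers summed to 89.5 to 100 CPM in WT, 96.7 to 113 in F1 and 117 to 122 in F2, with Pecam1 called in F2. Over all tested genes, the exact test called 3.77% higher in F1 and 3.86% in F2. The quasi-likelihood test called 0 astrocyte markers in F1 and 1 in F2. It called 0 microglia and 0 oligodendrocyte markers in either group, and 1 endothelial marker, in F2 alone. Of the 5 choroid plexus markers, 3 were under 1 CPM in every library. The part of any of these cells in the results for Slc32a1, Gad2, Reln, Slc6a11 and Abat was not tested.

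**Figure D4:**
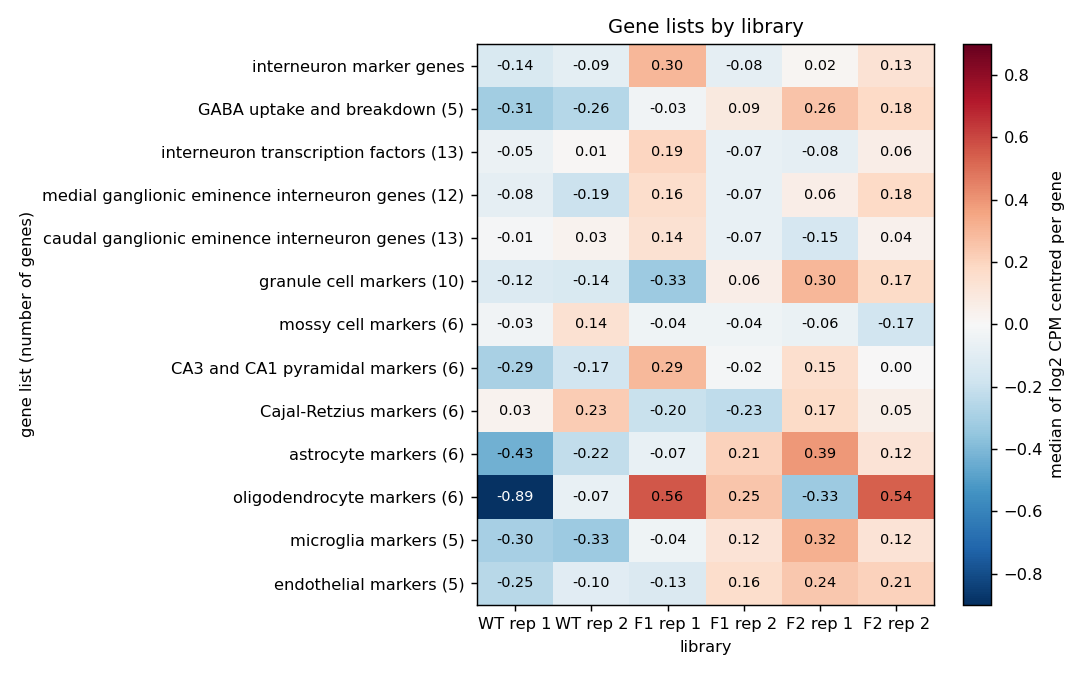
Median over each gene list of log2 CPM centred per gene on its mean over the 6 libraries, with 1 column per library and the value printed in each cell. The interneuron marker genes are highest in F1 replicate 1, at 0.30, and the astrocyte markers run from -0.43 in WT replicate 1 to 0.39 in F2 replicate 1.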

How the data were processed

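Ventral dentate gyrus was microdissected from cryosections of WT, F1 and F2 males, and TruSeq libraries of polyA RNA were sequenced as single-end reads of 50 bases. The authors aligned reads to mm9 (NCBIM37) with TopHat and deposited raw counts per gene from HTSeq in intersection-strict mode. Whether counting used strand is not given in the sources used here. The bisulphite samples were not used here.

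The 5 rows naming no gene, 35.3 to 46.6% of each library's total, were left out. Of these, reads on no gene feature numbered 7408466 and 7464978 in WT, 5000304 and 4391315 in F1, and 4330026 and 5888971 in F2. Both WT libraries were thus above every F1 and F2 library, and the part of this difference in the results was not tested. Counts were filtered with filterByExpr, scaled by TMM and tested with the exact test of edgeR 4.0.16 in R 4.3.3, with common and tagwise dispersion over the 6 libraries and q under 0.01. Alternatives included the quasi-likelihood test, DESeq2 1.42.0, other scalings and filters, and leaving out each library. Standard errors came from mean counts and tagwise dispersion. The pipeline was tested on simulated data.

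All 10 members are named, as are called and the 2 best counted genes of each further GABAergic list, and the 3 nearest genes of the 3 most variable members. A gene covered by this rule is not reported here, though it enters the counts. Centred levels and likeness used log2 of CPM with a pseudocount of 0.5, and ratios used CPM without one. Members and lists were chosen with earlier results of these data known. Positions come from GENCODE M1, and Lamp5 and Ndnf were found under older symbols.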

Additional observations from a re-analysis of the deposited data

Results flagged for a closer look

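Syt2 differed between F2 and F1 in a direct test, with a log2 fold change of 1.15 ± 0.22 (edgeR exact test q = 7.58e-05). It was at -0.40 in F1 against WT and 0.75 in F2 against WT. The highest library was F2 replicate 2 at 26.9 CPM, without which none of the 42 tested genes of the wider GABAergic lists was called between F2 and F1, and the quasi-likelihood test did not call it (q = 0.0484).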

How the results depend on the processing

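The number of libraries, more than depth, limits the precision, with 2 per group. Of 510 alternatives for single markers, 467 kept their direction and their side of the threshold, 25 reversed, 16 lost a call and 2 gained one in the same direction. Of those that reversed, 1 also passed the threshold, Sst in F1 without F1 replicate 1 (q = 0.00547). No other scaling moved the median of all genes by more than 0.0302 on the log2 scale.

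At a threshold of 0.05, 2 markers were called in F1, and 8 of the wider GABAergic genes. At q under 0.01, the quasi-likelihood test called 1 of the wider genes in F1, against 5.91% of all genes. The exact test with dispersion from the 2 groups compared called 2 of them in F1. In F2 against F1 the quasi-likelihood test called 0, against 0.0115% of all genes. The log2 fold change of Pvalb in F1 turned to -0.01 with total counts only and -0.001 with a filter of CPM above 1 in 2 libraries, that of Sst in F1 to -0.003 with total counts only, and that of Pvalb in F2 to 0.01 with no filter.

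Leaving out 1 library at a time gave 1 to 3 markers called in F1, 1 to 3 in F2 and 0 to 1 in F2 against F1, and 0 to 9, 2 to 7 and 0 to 3 of the wider genes. The 9 came without F1 replicate 1 and the 0 in F1 without WT replicate 1, and in F2 the 2 came without WT replicate 1. The median of the markers ran from 0.07 to 0.39 in F1, 0.15 to 0.26 in F2 and -0.22 to 0.27 in F2 against F1. In F1 the direction turned for Pvalb (-0.42 to 0.36), Sst (-0.83 to 0.57), Npy (-0.68 to 0.25), Vip (-0.14 to 0.24) and Reln (-0.02 to 0.29). In F2 it turned for Pvalb (-0.23 to 0.18) and Cck (-0.17 to 0.09). In F2 against F1 it turned for Slc32a1 (-0.12 to 0.03), Pvalb (-0.37 to 0.41), Sst (-0.95 to 0.45), Npy (-0.54 to 0.38) and Lhx6 (-0.38 to 0.03). The causes were not tested.

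The replicate differences of the groups correlated at -0.00862 (WT and F1), -0.0898 (WT and F2) and -0.23 (F1 and F2). None was positive, but such correlations cannot show whether the replicate numbers pair the libraries. With the number as a replicate block, the quasi-likelihood test called 0 markers in F2, where it called 2 without the block, and 1, 2 and 0 of the wider genes in F1, F2 and F2 against F1. A likelihood-ratio test with that block called 2 wider genes in F1, and gave -0.0005 for Pvalb and -0.01 for Sst in F1, where the quasi-likelihood fit with the block also gave -0.01 for Sst.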

Other observations

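Cort, the gene of a peptide close to somatostatin, was counted at 4.03 and 3.66 CPM in WT, 3.90 and 1.07 in F1, and 1.83 and 2.64 in F2, and both F2 libraries were below both WT libraries (exact test q = 0.215). Penk, the proenkephalin gene, was at 19.9 CPM in F1 replicate 1 and 9.10 in F1 replicate 2, the highest and the lowest of its 6 libraries. Nkx2-1, which specifies medial ganglionic eminence cells in the embryo, was near 1 CPM, at 1.03 and 1.27 in WT, 0.627 and 0.486 in F1, and 0.561 and 0.483 in F2, with q = 0.0352 in F1 and 0.0309 in F2. These genes were singled out after their values were seen.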
